A study of Mus musculus with 15 samples.

Results

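The PU.1 peaks of mouse eosinophils were set against those of neutrophils. PU.1 had been mapped by ChIP-seq in 1 library of BALB/c eosinophils, which gave 62236 peaks of the 365607 peaks in the 13 peak lists of the series' 15 samples. The members were these 62236 peaks, and a peak was counted as shared when at least 1 bp of it lay in a peak of the deposited neutrophil list, and as private otherwise. That list holds 100426 peaks from cells outside the series, and its file name gives the cell type as Neut and the antibody target as PU.1.

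The eosinophils of all samples were grown for 14 days from unselected bone marrow progenitors. The medium held stem cell factor and FLT3 ligand, at 100 ng/mL each, until day 3. From day 4 it held 10 ng/mL of interleukin 5, which drives eosinophils to mature and survive. BALB/c cells also gave 2 libraries each of ATAC-seq, of ChIP-seq for H3K27ac, H3K4me3 and H3K4me1, and of RNA-seq. A second strain, titled C57 and labelled BL6/57, gave 2 libraries each of ATAC-seq and H3K27ac ChIP-seq. For the neutrophils, 1 list of PU.1 peaks and 1 list of H3K27ac peaks were used; no strain, age, source or library method of these cells was found in the labels used here. Laboratory, library method, strain, age, source and cell type therefore cannot be told apart in any difference between the lists.

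PU.1, encoded by Spi1, is an ETS-family transcription factor that binds purine-rich DNA with a GGAA core and governs the development of myeloid cells and B cells. In myeloid cells it occupies a great many enhancers and promoters, and its sites depend on its own dose and on partner factors. C/EBP factors partner it in neutrophils and eosinophils, and GATA factors, which oppose or redirect PU.1, take part in the eosinophil lineage. ATAC-seq marks open chromatin, H3K4me3 is found at active promoters, H3K27ac at active promoters and enhancers, and H3K4me1 at enhancers. No genome or annotation of the files' build, mm9, was used here, so regions are given by coordinates and no gene is assigned to them.

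The cultures expressed the defining eosinophil genes along with genes of other myeloid cells. In the 2 RNA libraries, of 40306679 and 30465490 counts, Spi1 stood at 411 and 436 CPM, the count scaled to a common library total. All 5 eosinophil markers examined were above 1 CPM in both libraries, with summed levels of 8195 and 8431 CPM, led by Prg2, the major basic protein of the granule core, at 3910 and 4195 CPM. All 8 neutrophil markers were also above 1 CPM, with summed levels of 1573 and 1324 CPM, led by the granule gene Ngp at 658 and 482 CPM, while Elane, the neutrophil elastase, stood at 3.52 and 7.09 CPM. Of 5 macrophage markers 4 were above 1 CPM, with summed levels of 3468 and 3862 CPM, led by Adgre1 at 1357 and 1558 CPM. Marco had 0 counts in both libraries, where 3 counts would equal 0.0744 and 0.0985 CPM. Whether eosinophils themselves or other cells held these transcripts was not tested, nor was the part of other cells in the PU.1 peaks. In bulk chromatin a peak carried by few cells cannot be told apart from a weak peak in all of them.

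With an overlap of 1 bp, most eosinophil PU.1 peaks were also neutrophil peaks, while most neutrophil peaks had no eosinophil partner. Of the 62236 eosinophil peaks 43455, or 69.8%, were shared (95% Wilson interval 69.5 to 70.2%) and 18781 were private. Of the 100426 neutrophil peaks 46176, or 46.0%, were shared (45.7 to 46.3%) and 54250 were private. With summits within 100 bp as the rule, 48.3% of eosinophil peaks were shared, which is no longer most of them, and 29.95% of neutrophil peaks. With 1 library a side there was no replicate and no test, and the intervals cover counting error over peaks alone. The eosinophil peaks covered 31.9 Mb with a median width of 457 bp, and the neutrophil peaks 37.1 Mb with a median width of 361 bp.

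The lists differed in length, and the shares of sharing moved with it. When the neutrophil list was reduced to its 62236 strongest peaks, which removed all below a −log10 q of 16.1, 34443 eosinophil peaks were shared, or 55.3%, along with 57.5% of the retained neutrophil peaks. The −log10 q is the authors' own significance value of a peak and was used to rank peaks within a list. At equal length the shares of the lists count the same overlaps from either side over equal totals. Their closeness to each other therefore follows from the cut, and they differ only through peaks with several partners. The 9012 eosinophil peaks that became private by the cut had partners among the weaker neutrophil peaks.

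Where the lists overlapped, most peaks had their strongest points, or summits, within 100 bp of each other. These peaks were chosen by overlap, so short distances follow in part from the rule. Among the 43455 shared eosinophil peaks the nearest neutrophil summit was a median of 63 bp away. It lay within 50 bp in 42.9% of cases and within 100 bp in 69.2%. The median overlap was 358 bp. In 3096 cases (4.97%) an eosinophil peak covered parts of several neutrophil peaks, and in 573 cases (0.571%) a neutrophil peak covered parts of several eosinophil peaks. Across the 39411 pairs of peaks that had no other partner, the −log10 q values in the eosinophil and the neutrophil list had a Spearman rho of 0.503, given as a description, since peaks of a library share its depth and are not replicates.

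Few peaks stood at the edge of the rule. In 242 shared eosinophil peaks the overlap was 50 bp or less, with a median −log10 q of 5.39, and in 216 private peaks a neutrophil peak lay within 50 bp, with a median −log10 q of 5.30. These groups on either side of the edge were alike in width, with medians of 257.5 bp for shared and 272.5 bp for private peaks. Of the eosinophil-private peaks 18.3% had a neutrophil peak within 1000 bp and 36.2% had none within 10000 bp, with a median distance of 5865 bp. Of the neutrophil-private peaks 9.86% had an eosinophil peak within 1000 bp and 57.1% had none within 10000 bp, with a median distance of 14625 bp.

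Sharing rose with the strength of a peak in both lists, and in the eosinophil list as much with its width. Shared eosinophil peaks had a median −log10 q of 11.4 and eosinophil-private peaks 6.21, and the fold enrichment given by the authors had medians of 5.75 for shared and 4.59 for private peaks. Shared peaks were also wider, with a median of 529 bp, against 326 bp for private peaks. When the eosinophil list was divided into 10 equal parts by −log10 q, 46.2% of the weakest part and 95.9% of the strongest part were shared, and the share rose at each step between them. In the neutrophil list the weakest part was shared at 23.4% and the strongest at 92.2%, with values between 33.2 and 35.5% in parts 4 to 6. Divided by width instead, the eosinophil list was shared at 47.3% in the narrowest part, with a median width of 199 bp, and at 93.6% in the widest, with a median of 1010 bp. Strength and width went together, with a median width of 252 bp in the weakest and 863 bp in the strongest part, and under a 1 bp rule a wider peak has more bases that can overlap. The strongest part of the eosinophil list held 255 private peaks, and that of the neutrophil list 786.

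**Figure D1:**
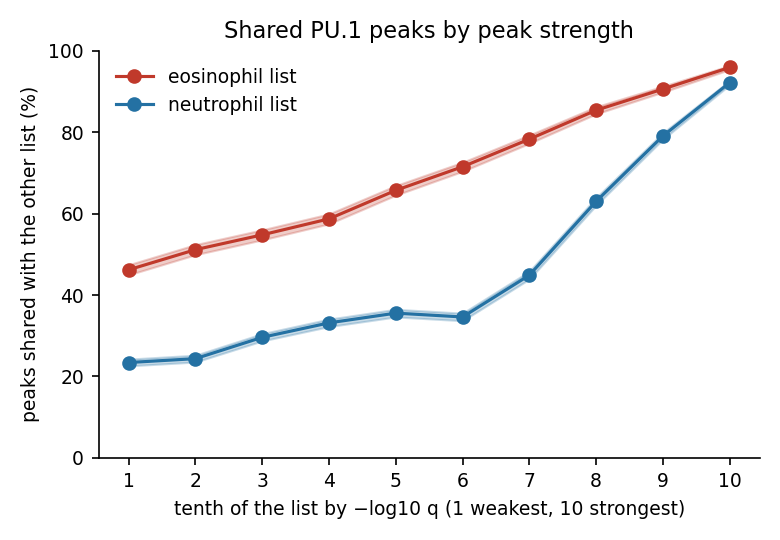
Share of PU.1 peaks (%) that overlap the other list by at least 1 bp, for 10 equal parts of the eosinophil list (red) and the neutrophil list (blue) ordered by −log10 q; bands are 95% Wilson intervals for counting error, 1 library a side. Sharing reached 95.9% in the strongest part of the eosinophil list and 92.2% in that of the neutrophil list.

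Under the 1 bp rule, chromatin in BALB/c eosinophils was open or modified at similar shares of shared and eosinophil-private peaks, and at far fewer neutrophil-private peaks. ATAC peaks of the 2 libraries lay at 43.3 and 43.5% of shared peaks, at 36.2 and 37.4% of eosinophil-private peaks, and at 3.70 and 3.65% of neutrophil-private peaks. The libraries of H3K27ac gave 31.4 and 35.6% of shared, 26.1 and 30.1% of eosinophil-private and 2.55 and 3.31% of neutrophil-private peaks. For these marks the neutrophil-private values lay far below the others in each library. Of all 100426 neutrophil peaks, 22.0 and 22.1% had ATAC and 16.0 and 18.5% had H3K27ac. Shared neutrophil peaks had ATAC at 43.5 and 43.8%. Of the ATAC regions present in both libraries, 16330 overlapped a peak of each list and 1095 a neutrophil peak alone. The split thus took most neutrophil peaks in open chromatin out of the private set. For ATAC regions present in both libraries the neutrophil-private share was 2.74%, and it was 14.1% when sharing needed an overlap of at least 50% in both directions and 12.8% when it needed summits within 100 bp.

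Without regard to strength, H3K4me3 was the mark with a lower share at shared than at eosinophil-private peaks. Its libraries lay at 25.7 and 27.2% of shared, 27.9 and 29.0% of eosinophil-private and 2.66 and 2.93% of neutrophil-private peaks. Those of H3K4me1 lay at 20.1 and 18.9% of shared, 15.5 and 13.8% of eosinophil-private and 3.32 and 2.89% of neutrophil-private peaks. The difference of shared minus eosinophil-private peaks for H3K4me3 was -2.19 and -1.77 points within the libraries.

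For regions present in both libraries of a mark, the share of all 62236 eosinophil peaks was 37.4% for ATAC, 29.8% for H3K27ac, 26.3% for H3K4me3 and 13.9% for H3K4me1. Split by the neutrophil list, ATAC lay at 39.2% of shared and 33.5% of eosinophil-private peaks, a difference of 5.68 percentage points, and the difference within single libraries averaged 6.60 ± 0.687 points (SD, n = 2). H3K27ac lay at 31.2% of shared and 26.5% of private peaks, or 4.72 points apart, with 5.35 ± 0.173 points within libraries. H3K4me1 lay at 15.1% of shared and 10.995% of private peaks, or 4.13 points apart, with 4.84 ± 0.366 points within libraries. H3K4me3 lay at 25.6% of shared and 27.9% of private peaks, a difference of -2.32 points, with -1.98 ± 0.295 points within libraries. Each of these differences was larger in size than its SD, but the SD holds only the spread between 2 libraries of a mark. It holds none of the spread in PU.1 peaks, and 2 libraries a mark with a single PU.1 library allow no test.

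**Figure D2:**
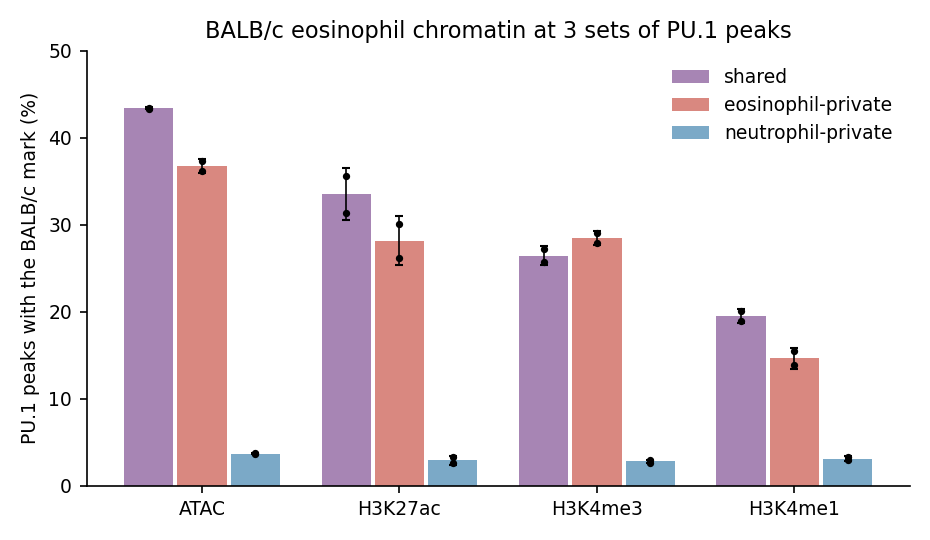
Share of PU.1 peaks (%) that overlap a BALB/c peak of each mark, for shared eosinophil peaks, eosinophil-private peaks and neutrophil-private peaks; bars are means of 2 libraries, points the libraries and error bars the SD. Neutrophil-private peaks average between 2.79 and 3.67% for these marks. The small excess of shared over eosinophil-private peaks for ATAC, H3K27ac and H3K4me1 turns negative as a plain mean over 10 parts by −log10 q. In parts 8 to 10, the strongest, it stays positive for ATAC and H3K27ac.

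The excess of open and acetylated chromatin at shared peaks went with their strength, and it turned round among weak peaks. In the weakest part of the eosinophil list ATAC lay at 13.3% of the 2875 shared and 26.3% of the 3348 private peaks, and H3K27ac at 11.5% of shared and 21.1% of private peaks. In the strongest part ATAC lay at 74.1% of the 5969 shared and 67.1% of the 255 private peaks, and H3K27ac at 56.9% of shared and 48.6% of private peaks. The sign changed between parts 7 and 8, where the ATAC difference was -1.08 and 2.59 points. Each library of both marks showed a negative difference in the weakest part and a positive one in the strongest. Parts 8 to 10 held 909, 586 and 255 private peaks, and no interval was computed for these differences. Averaged over the 10 parts, the difference of shared minus private was -4.46 points for ATAC, -2.73 for H3K27ac and -2.08 for H3K4me1, where the values without regard to strength were positive. This averaging was chosen after the data were seen. For H3K4me1 the difference was -0.700 points in the weakest part and -7.39 in the strongest, so its negative mean came mainly from strong peaks. ATAC and H3K27ac also turned to -12.0 and -12.9 points when shared peaks had to overlap by at least 50% in both directions, and to -10.2 and -9.57 points at like width.

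H3K4me3 showed the widest gap at the weak end. It lay at 10.7% of shared and 25.8% of private peaks in the weakest part, and at 37.3% of shared and 26.3% of private peaks in the strongest. Among private peaks its share therefore stayed between 25.8 and 31.5% at every strength, while among shared peaks it varied from 9.96 to 37.3%. H3K4me1 went the other way at the strong end, with 33.0% of shared and 40.4% of private peaks in the strongest part, and it lay at 7.10% of shared and 7.80% of private peaks in the weakest. Averaged over the 10 parts the H3K4me3 difference was -4.58 points.

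**Figure D3:**
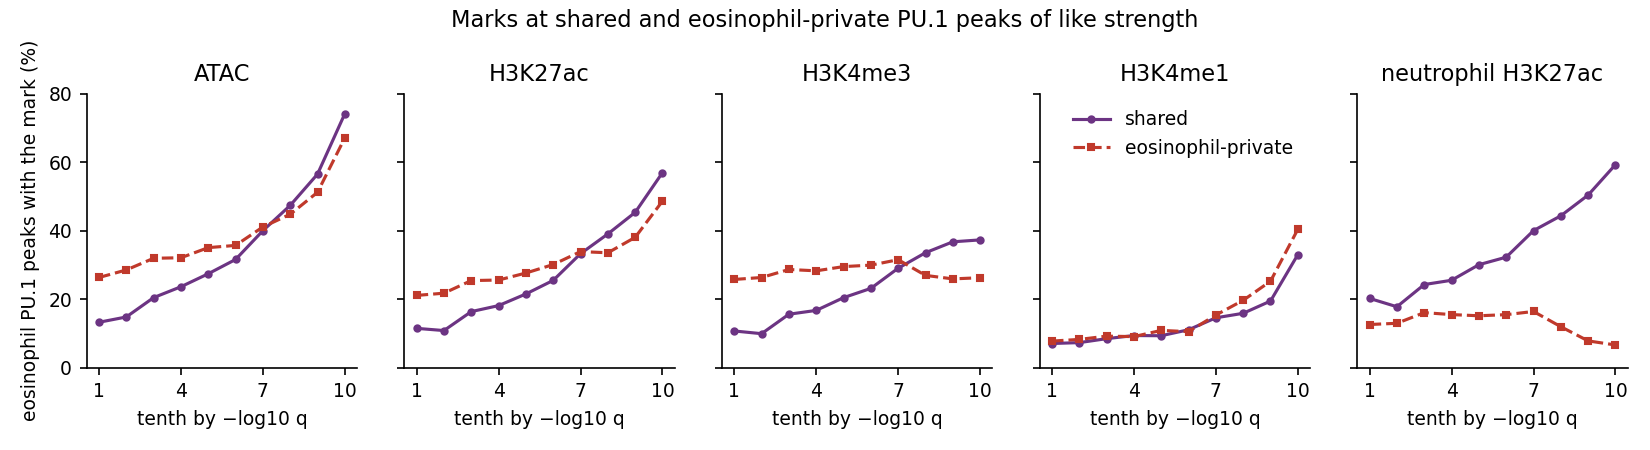
Share of eosinophil PU.1 peaks (%) with each BALB/c mark in both libraries, and with a peak of the neutrophil H3K27ac list, for 10 equal parts of the list ordered by −log10 q (1 weakest, 10 strongest), shared peaks in purple and eosinophil-private peaks in red. The lines of ATAC, H3K27ac and H3K4me3 cross near part 7, whereas neutrophil H3K27ac separates the sets further with strength, up to 59.3% of shared and 6.67% of private peaks.

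The C57 libraries showed the same order of the sets. C57 ATAC peaks lay at 45.2 and 45.7% of shared, 34.9 and 36.2% of eosinophil-private and 4.39 and 4.71% of neutrophil-private peaks. C57 H3K27ac peaks lay at 25.5 and 40.4% of shared, 20.4 and 34.2% of eosinophil-private and 1.54 and 4.45% of neutrophil-private peaks. The wide spread between these libraries stands beside the lengths of their lists, 14992 and 27527 peaks. Within them the difference of shared minus private was 5.06 and 6.22 points for H3K27ac, and 10.3 and 9.54 points for ATAC. In the weakest part of the list C57 ATAC regions present in both libraries lay at 13.5% of shared and 25.2% of private peaks, and in the strongest at 77.7% of shared and 56.9% of private peaks.

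Acetylation in neutrophils separated shared from eosinophil-private peaks at every strength. The neutrophil H3K27ac list, with 21838 peaks, overlapped 30.4% of all eosinophil PU.1 peaks. It overlapped 16260 of the shared peaks, or 37.4% (95% Wilson interval 37.0 to 37.9%), and 2663 of the eosinophil-private peaks, or 14.2% (13.7 to 14.7%). The difference was 23.2 points, and it was 21.3 points when averaged over the 10 parts by strength and 14.6 points at like width. With stricter rules for sharing it was smaller, at 5.33 points with an overlap of at least 50% in both directions and 9.21 points with summits within 100 bp. It was 7.61 points in the weakest part and 52.6 points in the strongest. Of the neutrophil's own PU.1 peaks, 24.4% carried neutrophil H3K27ac: 39.5% of the shared and 11.5% of the neutrophil-private peaks.

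Where the strongest private peaks of either side were acetylated, most had the mark in the cell type that had the peak and not in the other. Of the 255 eosinophil-private peaks in the strongest part of their list, 109 (42.7%) had H3K27ac in eosinophils alone, 15 (5.88%) in both cell types, 2 in neutrophils alone and 129 in neither. Of the 786 neutrophil-private peaks in the strongest part of theirs, 1 had H3K27ac in eosinophils alone, 17 (2.16%) in both, 457 (58.1%) in neutrophils alone and 311 in neither. Among the 5969 shared peaks of the strongest part of the eosinophil list, 674 (11.3%) had it in eosinophils alone, 2724 (45.6%) in both, 813 (13.6%) in neutrophils alone and 1758 in neither. Eosinophil H3K27ac here means a region present in both BALB/c libraries, while the neutrophil mark rests on 1 list.

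Over all strengths most private peaks lacked the mark in either cell type. Of the 18781 eosinophil-private peaks 13.8% had H3K27ac in eosinophils alone, 12.7% in both, 1.51% in neutrophils alone and 72.0% in neither. Of the 54250 neutrophil-private peaks 0.700% had it in eosinophils alone, 2.08% in both, 9.38% in neutrophils alone and 87.8% in neither. Shared eosinophil peaks had it in eosinophils alone at 6.35%, in both at 24.9%, in neutrophils alone at 12.5% and in neither at 56.2%. Among peaks with eosinophil H3K27ac, neutrophil H3K27ac was thus found at 79.7% of the shared and 47.8% of the eosinophil-private ones.

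**Figure D4:**
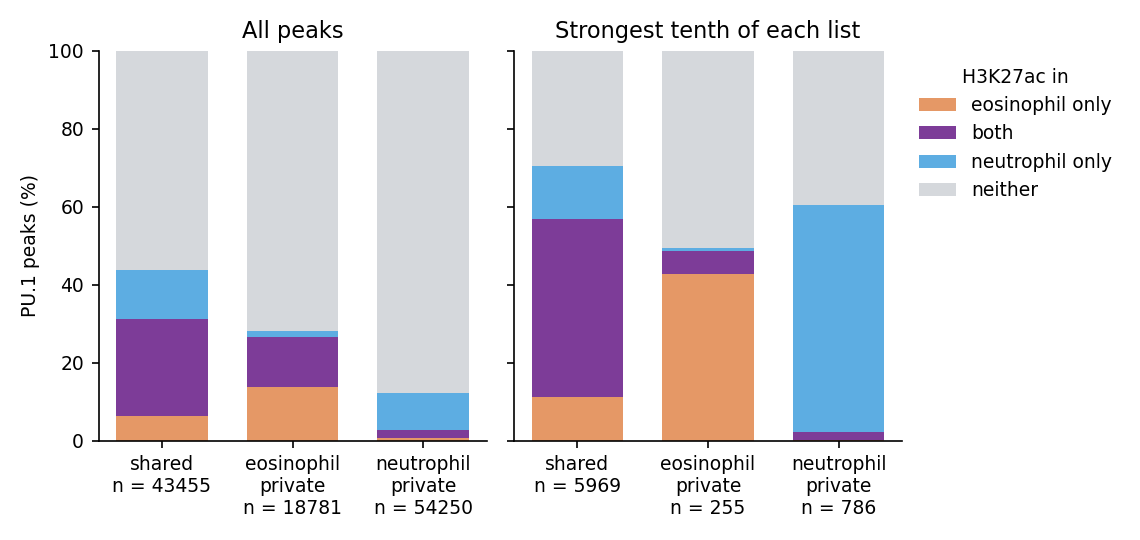
Stacked shares (%) of shared eosinophil, eosinophil-private and neutrophil-private PU.1 peaks with H3K27ac in eosinophils alone, in both cell types, in neutrophils alone or in neither, for all peaks (left) and the strongest of 10 equal parts of each list by −log10 q (right). In the strongest part 42.7% of eosinophil-private peaks have the mark in eosinophils alone and 58.1% of neutrophil-private peaks in neutrophils alone.

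Among classes of chromatin, open H3K4me3 regions had the share of sharing that lay farthest from that of all peaks of the same strength. The 14008 peaks in open chromatin with H3K4me3 were shared at 68.8% (95% Wilson interval 68.0 to 69.5%), where all peaks of the same parts of the list were shared at 75.2%. The 3599 peaks with H3K27ac and no H3K4me3 were shared at 83.0% (81.8 to 84.2%), and all peaks of the same parts at 83.0%. The 1741 peaks with H3K4me1 alone were shared at 78.9%, against 79.2% for all peaks of the same parts. The 3959 open peaks with none of these marks were shared at 76.4%, against 74.4%, and the 38929 peaks outside ATAC regions at 67.9%, against 65.8%. All peaks together were shared at 69.8%.

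The share of the open H3K4me3 class lay below that of all peaks in parts 1 to 7 of the list and above it in parts 8 to 10. In the weakest part 173 of 827 such peaks were shared, or 20.9%, against 46.2% of all peaks of that part. In part 5 the values were 55.4% for the class and 65.7% for all peaks, and in part 7 they were 76.5% and 78.3%. In the strongest part 97.3% of the class and 95.9% of all peaks were shared. Private peaks of the H3K4me3 class also differed from other private peaks in neutrophil acetylation, which lay at 51.1% of them. It lay at 11.5% of private peaks with H3K27ac and no H3K4me3, at 7.90% of those with H3K4me1 alone, at 2.89% of open unmarked ones and at 2.41% of those outside ATAC regions.

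**Figure D5:**
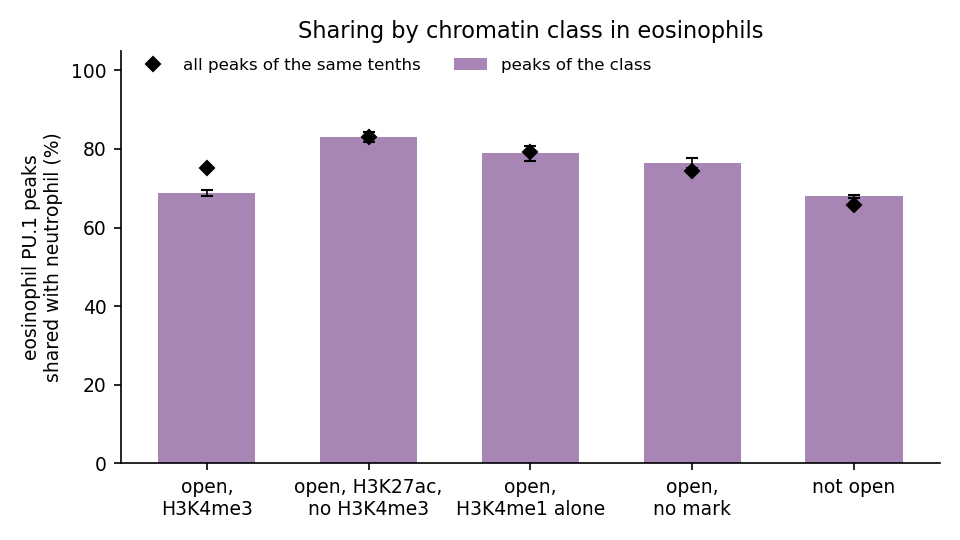
Share (%) of eosinophil PU.1 peaks shared with the neutrophil list by chromatin class in BALB/c eosinophils (bars, with 95% Wilson intervals for counting error), and the share among all eosinophil peaks of the same parts of the list by −log10 q (diamonds). Open H3K4me3 peaks were shared at 68.8%, below the 75.2% of peaks of the same parts, and the other 4 classes lay closer to theirs.

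Seen from open chromatin, most BALB/c ATAC regions with PU.1 had it in both cell types. Of the regions present in both ATAC libraries, 4968 (18.1%) overlapped an eosinophil peak alone, 16330 (59.6%) a peak of each list, 1095 (4.00%) a neutrophil peak alone and 5009 (18.3%) no peak of either list. Regions with the eosinophil peak alone and with both were of like width, with medians of 662 and 668 bp, and carried eosinophil H3K27ac at 60.9 and 67.0%. They differed in neutrophil H3K27ac, which lay at 32.2% of regions with the eosinophil peak alone and at 69.1% of regions with both. H3K4me3 lay at 64.8% of regions with the eosinophil peak alone and at 56.2% of regions with both. Regions with a neutrophil peak alone carried eosinophil H3K27ac at 24.4% and H3K4me3 at 25.1%, and neutrophil H3K27ac at 39.3%. They were narrower, with a median of 378 bp, and a narrower region has fewer bases that can overlap a mark. Regions with no peak of either list had a median of 394 bp. Those carried eosinophil H3K27ac at 19.8%, H3K4me3 at 43.1% and neutrophil H3K27ac at 15.1%.

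Many eosinophil-private peaks lay in lists of other myeloid cells, though a smaller share of them than of all eosinophil peaks. Of the 18781 private peaks 62.6% overlapped the deposited macrophage list (named mBMDM), which is the longest with 135034 peaks, and 16.0% the list of immature granulocytes (named ImmGran) with 35266 peaks. For all eosinophil peaks these values were 83.3% and 40.4%, and for the shared peaks 92.2% and 51.0%. Private peaks that lay in none of the 3 outside lists numbered 6676 (35.5%), of which 62 were in the strongest part of the eosinophil list. These 6676 peaks had a median width of 283 bp and overlapped ATAC at 33.5%, H3K27ac at 28.3%, H3K4me3 at 24.4% and H3K4me1 at 15.2%. The 11757 private peaks with a macrophage partner overlapped ATAC at 33.4%, H3K27ac at 25.5%, H3K4me3 at 30.2% and H3K4me1 at 8.34%.

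Single regions show the range of these sets, all in mm9. The shared peaks with the highest −log10 q lay at chr12:3109809-3110177, with 209.97 in the eosinophil and 290.2 in the neutrophil list, at chr6:103598994-103599345, with 209.9 and 240.4, and at chr9:35112747-35113237, with 178 and 328. Each of them also had a peak in all 17 lists compared here, across every mark, strain and cell type. Their fold enrichment was 35.2, 41.1 and 24.4, where the median of shared peaks was 5.75. They were 369, 352 and 491 bp wide, where the strongest part of the eosinophil list had a median of 863 bp. As every assay gave a peak there, the lists cannot show whether these peaks reflect PU.1 binding. The same 3 peaks headed the shared peaks that were open and acetylated as well. Such peaks common to all 17 lists numbered 439 (0.705%), and 242 of them were in the strongest part of the eosinophil list.

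Leaving those 439 peaks aside, a choice made after their values were seen, the leading open and acetylated shared peaks were others. The first lay at chr11:121843607-121843904, with a −log10 q of 133 in the eosinophil and 24.4 in the neutrophil list, and carried all 4 BALB/c marks and no neutrophil H3K27ac. The next lay at chr4:155609576-155610781, with 120.2 in each list, and carried ATAC, H3K27ac and H3K4me3 in eosinophils and H3K27ac in neutrophils. The third lay at chrX:166649874-166650333, with 116 in the eosinophil and 18.4 in the neutrophil list, and carried all 4 BALB/c marks and no neutrophil H3K27ac. The first and the third were the last peaks of chromosomes 11 and X in both the eosinophil and the neutrophil list and so stood at the end of the listed part of those chromosomes, and what this position meant for their values was not tested. The peak at chr12:3109809-3110177 was the first of its chromosome in the eosinophil list.

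The eosinophil-private peaks with the highest −log10 q were of different kinds. The peak at chr14:122968127-122968379 had a value of 81.5 and H3K4me1 alone among the BALB/c marks, overlapped C57 H3K27ac, and lay in none of the other PU.1 lists. The peak at chr6:54118971-54119304 had a value of 71.1 and none of the marks in both libraries, and lay in the macrophage and immature granulocyte lists. The peak at chr17:86736154-86737156, 1003 bp wide, had a value of 68.7 and lay 6205 bp from the nearest neutrophil peak. It carried ATAC, H3K27ac and H3K4me1 without H3K4me3, was open and acetylated in C57 cells too, had no neutrophil H3K27ac, and lay in the macrophage and immature granulocyte PU.1 lists. It was also the strongest open and acetylated private peak, followed by chr7:122205952-122207051, with a value of 62.3, which carried the same BALB/c marks, was open in C57 cells and lay in the same 2 outside PU.1 lists. The third, chr8:128302914-128303159, had a value of 59.9, was not open in both C57 libraries, overlapped neutrophil H3K27ac and lay in the immature granulocyte list.

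The 3 strongest neutrophil-private peaks had no ATAC region present in both BALB/c libraries, and 2 of them had one in both C57 libraries. The peak at chr7:38940770-38941271 had a −log10 q of 357 and carried neutrophil H3K27ac. It had none of the BALB/c marks in both libraries, but ATAC and H3K27ac regions of both C57 libraries overlapped it. The peak at chr9:48479933-48480362 had 355 and an ATAC region in both C57 libraries, and the peak at chr11:7516645-7517105 had 342, none of the eosinophil marks, and no eosinophil peak within 582057 bp. All 3 were present in the macrophage list. Where neutrophil-private peaks were open and acetylated in BALB/c eosinophils, the strongest lay at chr4:118798473-118798886 with a value of 179, at chr8:127224716-127225333 with 153 and at chr17:36248456-36249001 with 136, and all 3 had neutrophil H3K27ac. The first of these was 569 bp and the last 123 bp from an eosinophil peak.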

How the data were processed

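The authors deposited 1 peak list per library, per the labels with the mm9 build; the submitters' processing notes name Bowtie2 2.3.4.1, bedtools 2.27.0, Picard 1.89, Trim Galore 0.4.2 and HOMER without the role of each, and the peak caller is not given in the sources used here. Per the labels' protocols, ChIP used sonicated nuclei and ChIPmentation, in which a transposase adds the adapters. The deposited lists give a fold ratio over the caller's background and a −log10 q per peak, identified by the column layout, and PU.1 lists also a summit; the deposited RNA tables hold whole-number read counts per gene, divided here by the library total. How deeply the libraries behind the peak lists were sequenced is unknown. The names of the eosinophil and neutrophil PU.1 lists give the same calling mode, whose meaning is not given in the sources used here.

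Peaks were compared by overlap of at least 1 bp. ATAC and histone peaks of the 2 libraries were joined into regions, and those with a peak of each library were used beside the values of the single libraries. The 10 equal parts were cut by −log10 q within a list. Overlapping peaks within the neutrophil list, 905 in number, were kept as deposited. Named regions are, for each set, the 3 with the highest −log10 q on chromosomes 1 to 19 and X, also among open and acetylated ones, and the 3 windows of 100 kb with most private peaks. Peak sets, alternatives and marker lists were chosen with earlier results of these data known. No p-value was computed: peaks of a library are not replicates. Whether the 2 libraries of a mark came from separate cultures is not stated in the labels, so their SD may be technical. Left out were 4 deposited lists and tables of outside cells that this comparison does not need. The overlap code was tested on simulated data. Python 3.11.15, numpy 2.4.6, pandas 2.3.3, scipy 1.17.1 and matplotlib 3.10.9 were used.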

Additional observations from a re-analysis of the deposited data

How the results depend on the processing

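As reported, 69.8% of eosinophil and 46.0% of neutrophil PU.1 peaks were shared, the difference of shared minus eosinophil-private peaks was 5.68 points for ATAC, 4.72 for H3K27ac, -2.32 for H3K4me3, 4.13 for H3K4me1 and 23.2 for neutrophil H3K27ac, and 2.74% of neutrophil-private peaks were open. H3K4me3 stayed negative and neutrophil H3K27ac positive under each alternative run. With equal list lengths, sharing was 55.3% of eosinophil and 57.5% of neutrophil peaks, H3K4me3 -3.47, H3K4me1 6.06, neutrophil H3K27ac 24.3 and open neutrophil-private peaks 1.99%. With a reciprocal overlap of at least 50%, sharing was 54.0% and 33.5%, ATAC turned to -12.0 and H3K27ac to -12.9, H3K4me3 was -16.3, H3K4me1 0.331, neutrophil H3K27ac 5.33 and open neutrophil-private peaks 14.1%. With summits within 100 bp, sharing was 48.3% and 30.0% (29.95%), ATAC turned to -0.683 and H3K27ac to -2.15, H3K4me3 was -6.60, H3K4me1 2.12, neutrophil H3K27ac 9.21 and open neutrophil-private peaks 12.8%. Under these 2 rules overlapping peaks with less overlap count as private by construction. With a −log10 q of at least 5, sharing was 74.8% and 40.3%, H3K27ac 4.98, H3K4me3 -1.37, neutrophil H3K27ac 25.2 and open neutrophil-private peaks 3.67%. On chromosomes 1 to 19, 47.0% (46.96%) of neutrophil peaks were shared and 2.86% of neutrophil-private peaks were open. With regions of either library, ATAC was 6.72, H3K27ac 5.44, H3K4me3 -1.74, H3K4me1 5.71 and open neutrophil-private peaks 4.98%. Leaving out each library in turn gave 6.12 to 7.09 for ATAC, 5.23 to 5.47 for H3K27ac, -2.19 to -1.77 for H3K4me3, 4.58 to 5.10 for H3K4me1 and 3.65 to 3.70% for open neutrophil-private peaks. The other 4 alternatives were chosen after seeing the data. At like −log10 q, as a plain mean over 10 equal parts, ATAC turned to -4.46, H3K27ac to -2.73 and H3K4me1 to -2.08. H3K4me3 was then at -4.58 and neutrophil H3K27ac at 21.3. At like width, ATAC turned to -10.2 and H3K27ac to -9.57, with H3K4me3 at -13.5, H3K4me1 at 0.0481 and neutrophil H3K27ac at 14.6. At the summit base, H3K27ac was 2.55, H3K4me3 -4.13 and H3K4me1 2.31. Without peaks found in every list, ATAC was 5.06, H3K27ac 4.02, H3K4me3 -3.07 and H3K4me1 3.30. Beyond that construction the cause was not tested. No paired analysis was possible because PU.1 has 1 library a side and no result comes from a test. The sequencing depth behind the lists is unknown, so a private peak is one not listed in the other cell type, and binding below detection there cannot be told apart from none.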

Other observations

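The X chromosome was low in the eosinophil list, and its neutrophil peaks were shared least. It held 1289 eosinophil peaks, or 2.07% of that list, where each of chromosomes 1 to 19 held between 2.86 and 7.85%. It held 3831 neutrophil peaks, or 3.81% of that list, where each of chromosomes 1 to 19 held between 2.90 and 7.64%. Neutrophil peaks per eosinophil peak came to 2.97 there and lay between 1.34 and 1.88 on chromosomes 1 to 19. The shared part was 73.2% of the eosinophil peaks and 25.9% of the neutrophil peaks on X, while on chromosomes 1 to 19 it ranged from 65.9 to 73.7% for eosinophil and from 40.2 to 55.8% for neutrophil peaks. The sex of the animals was not used here, and its part in these values was not tested.

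Private peaks were dense in a few windows of 100 kb. The window chr9:3000001-3100000 held 24 private and 22 shared eosinophil peaks. Of these, 44 lay in ATAC regions, 26 had H3K27ac, 33 had H3K4me3, 45 lay in the macrophage list and 30 had neutrophil H3K27ac. Most peaks of this window thus also lay in lists of other assays and cells. Whether they reflect PU.1 binding was not tested, nor was the part of the window's position on the chromosome. The windows chr5:14900001-15000000 and chr5:15100001-15200000 held 23 private peaks each, beside 1 and 3 shared ones, with 0 and 1 peaks in ATAC regions and none with H3K27ac, and 7 of 24 and 14 of 26 of their peaks lay in the macrophage list. For neutrophils, chr13:16000001-16100000 held 27 private peaks, 8 of them with neutrophil H3K27ac, and chr16:36300001-36400000 held 23, 12 of them with it, and neither window held an eosinophil PU.1 peak. The window chr11:82900001-83000000 held 21 private and 6 shared neutrophil peaks, 14 of the 27 with neutrophil H3K27ac. The median window with a peak held 1 private and 2 shared eosinophil peaks, or 2 private and 1 shared neutrophil peak.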
